A study of Mus musculus with 7 samples.

Results

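The mRNAs of 51 subunits of the oxidative phosphorylation machinery were read in whole hearts of dystrophic mdx mice with and without IKKβ in cardiomyocytes. The genes were taken as listed and not by any measured value. Each was read by the probe set that the platform's annotation gives to that gene alone, and where a gene had several, by the one with the highest mean over the 7 arrays. Of the 51 genes, 49 could be read, of 18194 genes on the arrays. They comprised 25 of the 26 listed subunits of complex I, all 4 of complex II, all 7 of complex III, 9 of 10 of complex IV and all 4 of complex V. Ndufs6 was matched only by a probe set shared with another gene and Cox7b by no named probe set, and neither is reported here.

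The study asked what canonical NF-κB signaling does in dystrophic cardiomyocytes, and this experiment compared 4 hearts of male mdx mice in which Myh6-cre had deleted floxed Ikbkb (mdx HRTΔIKKβ) with 3 hearts of mdx mice carrying floxed IKKβ and no Cre (mdx IKKβf/f, the controls). All mice lacked dystrophin through the mdx mutation and were 7 months old, and the controls are described as littermates. IKKβ is the kinase that releases NF-κB by marking its inhibitor for degradation. Myh6 drives Cre in cardiomyocytes and not in the other cells of a heart, whole hearts were used, and no group carried Cre without the floxed alleles, so that the presence of Cre and the loss of IKKβ cannot be told apart. Values are log2 intensities after robust multi-array averaging (RMA), 1 heart per array. Below, a mean is given ± SD over n = 3 control or n = 4 mdx HRTΔIKKβ hearts, and a difference is mdx HRTΔIKKβ minus control on the log2 scale ± the standard error of the limma fit over all probe sets.

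Oxidative phosphorylation takes place in the inner mitochondrial membrane. Complex I takes electrons from NADH and complex II from succinate, both pass them through ubiquinone to complex III, cytochrome c carries them to complex IV, and complexes I, III and IV pump protons that return through complex V to make ATP. Nearly all subunits are encoded in the nucleus, a few in mitochondrial DNA, and the working heart depends on this pathway for most of its ATP. The nuclear genes share regulators, among them the nuclear respiratory factor NRF1, ETS-family factors of the GABP type, the estrogen-related receptors (ERR) and YY1, with the coactivator PGC-1α.

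The start regions of these genes are shown first, because the regulators measured further on are known to act there. RefSeq (GRCm38.p6) windows of 300 bases, 250 before and 50 after the annotated start, were at hand for 37 of the 49 genes, 40 windows in all. The following are the window of Sdhd, which held 3 of the 5 motifs searched where no other subunit gene held more than 1, and the windows of Ndufb2 and Cox8b, the genes with the lowest differences in complexes I and IV among those with a window. Each is written 5′ to 3′ on the gene's strand, with motif matches on either strand in capitals.
Sdhd (chr9:50603800-50604099, minus strand): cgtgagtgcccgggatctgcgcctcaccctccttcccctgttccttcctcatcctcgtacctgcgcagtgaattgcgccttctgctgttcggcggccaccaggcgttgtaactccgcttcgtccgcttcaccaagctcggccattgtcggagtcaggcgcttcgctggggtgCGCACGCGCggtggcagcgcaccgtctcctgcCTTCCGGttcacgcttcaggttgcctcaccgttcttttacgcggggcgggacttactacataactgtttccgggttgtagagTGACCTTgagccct
Ndufb2 (chr6:39592315-39592614, plus strand): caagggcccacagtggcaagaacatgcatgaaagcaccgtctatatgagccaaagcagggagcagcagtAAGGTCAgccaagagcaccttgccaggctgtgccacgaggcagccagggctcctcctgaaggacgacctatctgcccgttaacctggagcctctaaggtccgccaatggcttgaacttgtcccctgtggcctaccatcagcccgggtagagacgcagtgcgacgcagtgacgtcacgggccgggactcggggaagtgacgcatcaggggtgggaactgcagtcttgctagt
Cox8b (chr7:140900397-140900696, minus strand): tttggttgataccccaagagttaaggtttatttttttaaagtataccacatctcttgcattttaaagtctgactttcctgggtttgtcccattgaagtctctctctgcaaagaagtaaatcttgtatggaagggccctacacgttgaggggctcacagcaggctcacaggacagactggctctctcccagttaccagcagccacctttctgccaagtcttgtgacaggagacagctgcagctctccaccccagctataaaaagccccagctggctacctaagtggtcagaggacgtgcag
In Sdhd the capitals mark, in order, the NRF1 motif (CGCANGCGC), the reverse complement of the ETS motif (CCGGAAG) and that of the ERR motif (AAGGTCA). In Ndufb2 they mark the ERR motif, and Cox8b held none of the 5.

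Over all windows of the subunit genes, the NRF1 motif stood in 10 of 40 (25.0%), against 6.31% of 32851 mouse windows of the same length. The ETS motif stood in 7 (17.5% against 8.86%) and the YY1 motif (AAGATGGC) in 5 (12.5% against 2.75%). The ERR motif stood in 2 (5.0% against 4.72%). The NF-κB motif GGGANTTTC stood in 0 of the 40 and in 1.11% of all windows. No 2 motifs overlapped in the windows shown, and a match of letters is a description of the sequence, not of binding.

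Small differences, mostly towards lower values, were seen across the subunits, and none passed the test. The mean was lower in mdx HRTΔIKKβ hearts for 42 of the 49 genes (85.7%) and higher for 7, where 52.3% of all genes were lower. The median difference was -0.031, against -0.0056 over all genes, and differences ran from -0.10 (Ndufs1) to 0.02 (Sdhc). At a limma adjusted p of 0.05, 0 of the 49 and 0% of all genes were called. At an unadjusted p of 0.05, 0 of the 49 were lower and 0 higher, where 2.95% and 3.25% of all genes were. The unpaired test that the study's methods name called 1 of them lower at an unadjusted 0.05 (Ndufb8) and 0 after adjustment. The share of all genes called by that test is not given here, so the 1 has no background beside it.

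The intervals bound the difference measured on these arrays, gene by gene and not jointly. Apart from Cox7c, whose probe set was dim, the 95% intervals of all 48 genes lay between -0.25 and 0.18 on the log2 scale, which is 0.844-fold to 1.13-fold as these arrays measure it. In only 1 of the 49, Ndufb8, were all 4 mdx HRTΔIKKβ hearts below all 3 controls, where 2.62% of all genes behaved so, and in 0 were they all above, where 3.04% did. In RNA from whole hearts, fewer cardiomyocytes and less of a transcript per cardiomyocyte cannot be told apart.

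**Figure D1:**
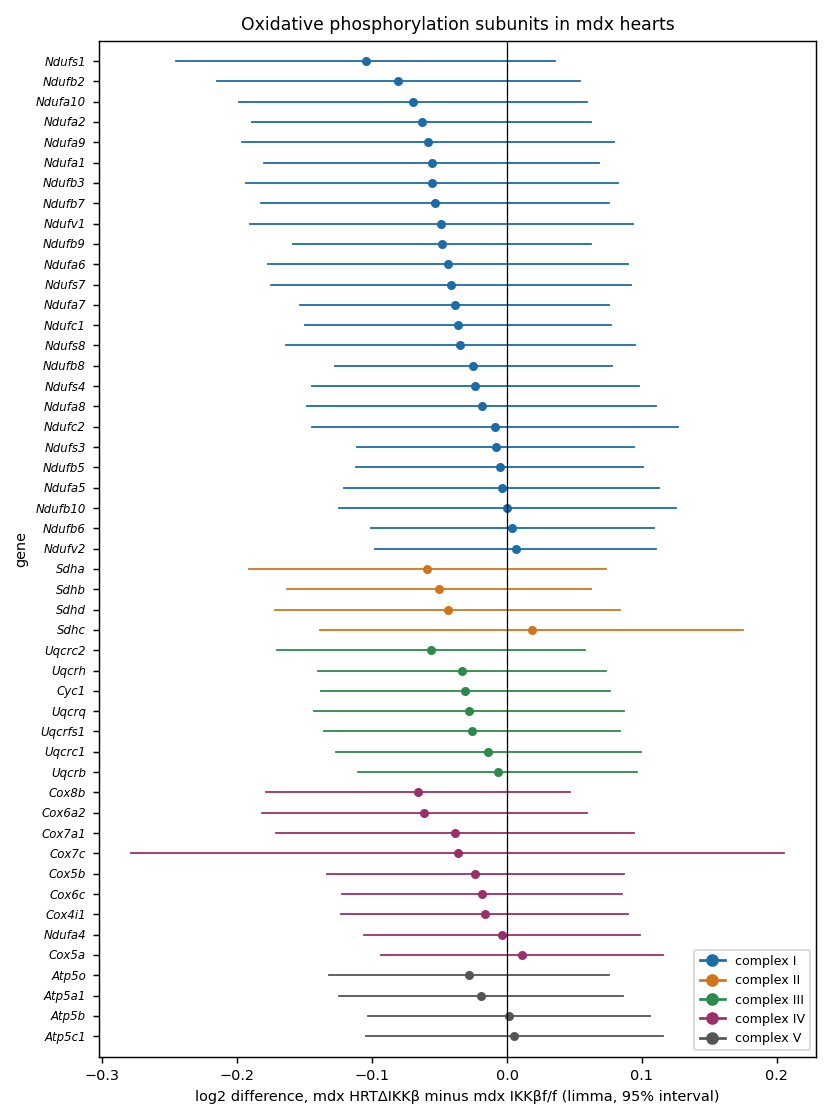
Difference of each of 49 subunit genes between 4 mdx HRTΔIKKβ and 3 mdx IKKβf/f hearts on the log2 scale (x axis, points) with its 95% limma interval (lines), sorted within complexes I to V (colours). Most points lie left of 0, 42 of 49, and every interval includes 0.

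These genes sit at the top of the array's range, which bears on how small a change can be seen. Their values, Cox7c aside, ran from 12.26 to 14.89 on arrays whose values ran from 3.12 to 15.09, and each of their means lay at or above the 98.0th percentile of genes. Their standard errors were small, with a median of 0.049 against 0.08 over all genes. The limma fit draws each variance towards that of all probe sets, and no standard error was under 0.044, even where the hearts varied least. The calls and interval widths rest in part on this. With trended and robust variance the smallest unadjusted limma p of the subunits was 0.0698, against 0.123 in the main fit. Bright probe sets approach the ceiling of the scanner and of the hybridization, and true differences can be compressed there. Of the 49, 44 had a mean of at least 13, and 38 of these were lower (86.4%, median -0.030). Among the 242 other genes with a mean of at least 13, 57.0% were lower, with a median of -0.010. These others were matched by that cutoff alone. They include further subunits, such as Cox6b1, and further mitochondrial genes, such as Cs. The part of brightness in the subunit values was not tested further.

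The probe sets not chosen were also mostly lower. The 49 genes had 105 probe sets of their own, and of the 56 that were not the brightest, 43 were lower in mdx HRTΔIKKβ hearts. At an unadjusted limma p of 0.05, 3 of the 105 were lower and 0 higher, where 2.76% of all probe sets were lower. These were a probe set of Atp5c1 at 7.73 ± 0.07 in controls and 7.52 ± 0.13 in mdx HRTΔIKKβ hearts (-0.21 ± 0.08), one of Cox5b at 7.92 ± 0.06 and 7.74 ± 0.10 (-0.18 ± 0.07) and one of Sdhd, at 9.89 to 10.09 in controls and 9.77 to 9.88 in mdx HRTΔIKKβ hearts (-0.16 ± 0.06), each with a limma adjusted p of 0.796. All 3 were far dimmer than the brightest probe set of the same gene, whose differences were 0.0054, -0.02 and -0.04.

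Complex I, the largest of the assemblies, was lower for 22 of its 25 genes, with a median difference of -0.039 and a range of -0.10 to 0.0064. Its N module, which holds the NADH-oxidizing site, was lower for 6 of 7 genes (median -0.044). The Q module, which reduces ubiquinone, was lower for 5 of 5 (-0.035), and the proton-pumping membrane arm for 11 of 13 (-0.036). Ndufs1 encodes the largest subunit of the N module, a carrier of iron-sulfur clusters. Its values were 13.52, 13.53 and 13.47 in the control hearts and 13.34, 13.32, 13.47 and 13.48 in the mdx HRTΔIKKβ hearts. mdx HRTΔIKKβ replicates 1 and 2 lay below every control, while replicates 3 and 4 lay at the level of control replicate 3. The means were 13.50 ± 0.03 and 13.40 ± 0.08, a difference of -0.10 ± 0.06 with a limma adjusted p of 0.796.

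The same pair of mdx HRTΔIKKβ hearts was lowest for other genes of complex I, among them the membrane-arm genes Ndufb2 and Ndufa10. Ndufb2, an accessory subunit whose start region is printed above, measured 13.72, 13.82 and 13.68 in the control hearts and 13.59, 13.65, 13.69 and 13.71 in the mdx HRTΔIKKβ hearts (-0.08 ± 0.06, adjusted p = 0.814). Control replicate 2 was the highest heart and mdx HRTΔIKKβ replicate 1 the lowest. Ndufa10, another accessory subunit of the membrane arm, measured 13.91, 14.02 and 13.94 in the control hearts and 13.85, 13.85, 13.90 and 13.96 in the mdx HRTΔIKKβ hearts (-0.07 ± 0.06, adjusted p = 0.823). The groups overlapped in both genes. The other probe set of Ndufa10, which was dimmer, was higher by 0.11 ± 0.07, and the mean of both gave 0.021.

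Smaller differences were seen for the rest of complex I. Ndufa2 of the N module differed by -0.06 ± 0.05 (adjusted p = 0.83). Ndufa1, a small membrane-arm subunit, was at 14.27 ± 0.03 and 14.21 ± 0.06 (-0.06 ± 0.05). Ndufa9, a Q-module subunit near the ubiquinone site, was at 13.71 ± 0.05 and 13.65 ± 0.07 (-0.06 ± 0.06). The membrane-arm genes Ndufb9 and Ndufb7 differed by -0.05 ± 0.05 and -0.05 ± 0.06. For these last 4 genes the adjusted p-values ran from 0.843 to 0.854. Ndufb8, named here after its values were seen, measured 14.33, 14.34 and 14.34 in the control hearts and 14.30, 14.30, 14.33 and 14.32 in the mdx HRTΔIKKβ hearts. All 4 mdx HRTΔIKKβ hearts lay below the controls, but by a difference of only -0.03 ± 0.04 (adjusted p = 0.914), and both groups varied very little.

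Complex II, succinate dehydrogenase, links the citric acid cycle to the respiratory chain and has only nuclear-encoded subunits. Sdha, the flavoprotein that oxidizes succinate, measured 13.87, 13.94 and 13.83 in the control hearts and 13.76, 13.77, 13.87 and 13.87 in the mdx HRTΔIKKβ hearts (-0.06 ± 0.06, adjusted p = 0.844). Sdhb, which carries the iron-sulfur clusters, measured 14.38, 14.41 and 14.34 in the control hearts and 14.29, 14.31, 14.34 and 14.37 in the mdx HRTΔIKKβ hearts (-0.05 ± 0.05, adjusted p = 0.844). In both genes mdx HRTΔIKKβ replicates 1 and 2 were below all controls and control replicate 2 was highest. The membrane anchors Sdhd and Sdhc parted in sign: Sdhd was at 13.80 ± 0.07 and 13.76 ± 0.05 (-0.04 ± 0.05) and Sdhc at 12.77 ± 0.13 and 12.79 ± 0.02 (0.02 ± 0.07), with adjusted p-values of 0.875 and 0.966. The Sdhc controls were the most spread of the subunits, Cox7c included, at 12.90, 12.77 and 12.64, and without control replicate 3 the difference was -0.045.

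Complex III, the cytochrome bc1 complex, was lower for 7 of its 7 genes, by -0.0070 to -0.056 (median -0.028). Uqcrc2, a core protein of the matrix side, measured 14.06, 14.11 and 14.00 in the control hearts and 14.00, 14.01, 14.00 and 14.00 in the mdx HRTΔIKKβ hearts (-0.06 ± 0.05, adjusted p = 0.833). The mdx HRTΔIKKβ hearts were nearly equal to each other and to control replicate 3, and control replicates 1 and 2 were above them. Uqcrh, the hinge protein, differed by -0.03 ± 0.05, Cyc1, the cytochrome c1 that hands electrons to cytochrome c, by -0.03 ± 0.05, and the small subunit gene Uqcrq by -0.03 ± 0.05. Their adjusted p-values were 0.886, 0.897 and 0.913.

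Complex IV, cytochrome c oxidase, was lower for 8 of 9 genes, with a median of -0.024 and a range of -0.066 to 0.011. Cox8b, the muscle form of a small membrane subunit, measured 14.35, 14.40 and 14.39 in the control hearts and 14.27, 14.30, 14.34 and 14.35 in the mdx HRTΔIKKβ hearts (-0.07 ± 0.05, adjusted p = 0.816). The highest mdx HRTΔIKKβ heart reached the lowest control and the other 3 were below it. Cox5b, a subunit of the matrix side, was the brightest of all 49 genes, at 14.87 ± 0.02 and 14.85 ± 0.04 (-0.02 ± 0.05, adjusted p = 0.928). Ndufa4 was first described with complex I and is known to associate with complex IV, with which it is counted here. It was at 14.21 ± 0.0024 and 14.20 ± 0.01 (-0.0038 ± 0.04, adjusted p = 0.991). Cox7c, a small subunit, is a caution about probe sets: its brightest gave only 7.49 ± 0.12 and 7.45 ± 0.17, far below every other subunit, so that its difference (-0.04 ± 0.10) says little about the transcript.

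Complex V, the ATP synthase, had the median nearest to 0 when each gene was read by its brightest probe set, but not with the mean of all probe sets (-0.036), without probe sets of ambiguous suffix (-0.024) or without control replicate 2 (-0.011). The genes of the catalytic head, Atp5a1 (α) and Atp5b (β), were at 14.72 ± 0.0059 and 14.68 ± 0.01 in controls and differed by -0.02 ± 0.05 and 0.0014 ± 0.04. The central stalk gene Atp5c1 (γ) differed by 0.0054 ± 0.05 and the peripheral stalk gene Atp5o by -0.03 ± 0.04. The adjusted p-values of the 4 genes ran from 0.905 to 0.997, and their median was -0.0090.

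Hearts of one group differed from each other as much as the groups did. A score per heart was taken as the mean of the members' values, each centred on its own mean over the 7 hearts. Over all 49 genes the scores of control replicates 1 to 3 were -0.005, 0.052 and 0.007, and those of mdx HRTΔIKKβ replicates 1 to 4 were -0.034, -0.025, 0.001 and 0.004. Control replicate 2 stood highest, mdx HRTΔIKKβ replicates 1 and 2 lowest, and the remaining 4 hearts of both groups lay close together. Control replicate 2 was the highest heart for 31 of the 49 genes (63.3%), among them 18 of 25 in complex I and 5 of 7 in complex III but 1 of 4 in complex V. Among the 242 other genes as bright it was highest for 22.3%. The lowest heart was mdx HRTΔIKKβ replicate 1 for 18 genes (36.7%) and replicate 2 for 15 (30.6%). Among the 242 other genes as bright they were lowest for 23.1% and 12.4%.

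**Figure D2:**
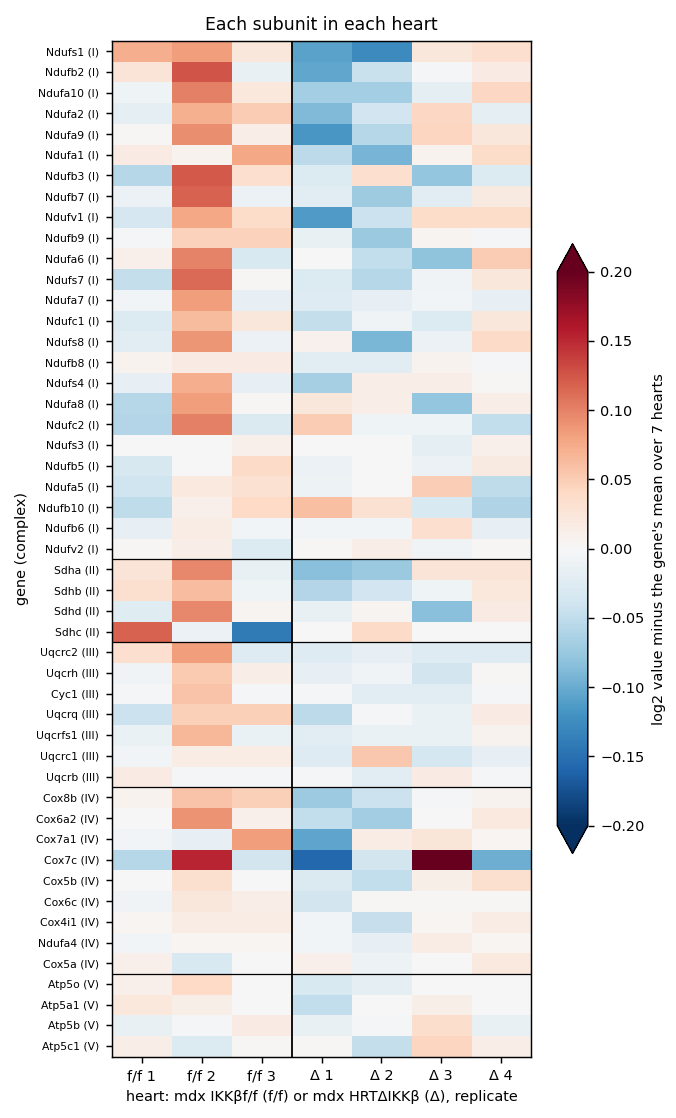
Each of 49 subunit genes (rows, by complex, separated by thin lines) in each of 7 hearts (columns, mdx IKKβf/f left and mdx HRTΔIKKβ right of the thick line), as the log2 value minus the gene's mean over the 7 hearts (colour, red higher and blue lower, capped at 0.2). The column of control replicate 2 is red for most genes of complexes I to III and the columns of mdx HRTΔIKKβ replicates 1 and 2 are mostly blue.

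Leaving out that control heart left the median difference over all 49 genes at -0.010, and 12 were then higher. The medians of complexes I to V were then -0.010, -0.018, -0.010, -0.014 and -0.011. Without control replicate 1, by contrast, the median of all 49 genes was -0.048, only 4 genes were higher, and the groups did not overlap for 9. Separation is easier with fewer hearts, and the share of all genes without overlap in that setting is not given here. No left-out heart turned the median of all the genes or of any complex positive.

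The complexes shared this order of hearts only in part. In complex I the controls scored -0.014, 0.066 and 0.012 and the mdx HRTΔIKKβ hearts -0.032, -0.031, -0.005 and 0.006. In complex III the groups came just short of overlapping, with the lowest control at -0.003 and the highest mdx HRTΔIKKβ heart at -0.004. In complex II control replicate 3, at -0.039, lay beside mdx HRTΔIKKβ replicate 1, at -0.040. In complex IV mdx HRTΔIKKβ replicate 1 was lowest (-0.051) and replicate 3 reached 0.031. In complex V the controls lay within 0.004 to 0.007, inside the range of the mdx HRTΔIKKβ hearts (-0.022 to 0.021).

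**Figure D3:**
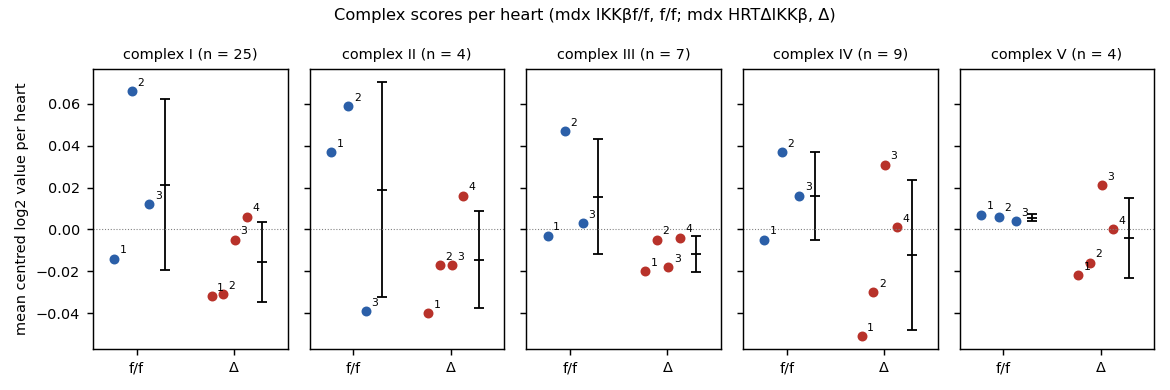
Mean centred log2 value per heart (y axis) of the genes of each complex, in mdx IKKβf/f (f/f, blue) and mdx HRTΔIKKβ (Δ, red) hearts, numbered by replicate; black bars are the mean ± SD. Control replicate 2 is highest in complexes I to IV, and complex III is the one whose groups do not overlap (lowest control -0.003, highest mdx HRTΔIKKβ heart -0.004).

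Some marker scores ran opposite to the subunit scores in these hearts, and others did so only in part. Control replicate 2 also had the lowest score of the 10 atrial markers (-1.52), of the macrophage markers (-0.335), of the fibroblast markers (-0.381), of the endothelial markers (-0.217) and of the brown and white adipocyte markers (-0.615). mdx HRTΔIKKβ replicates 1 and 2 had the highest macrophage scores (0.301 and 0.208), fibroblast scores (0.259 and 0.201), endothelial scores (0.055 and 0.267) and adipocyte scores (0.162 and 1.108) of all hearts. The B and plasma cell score was highest in mdx HRTΔIKKβ replicate 2 (2.195) and lowest in control replicate 3 (-1.447). In that score mdx HRTΔIKKβ replicate 1 (-0.263) lay beside control replicate 1 (-0.25). The atrial score was highest in mdx HRTΔIKKβ replicates 3 and 4 (0.507 and 1.003), with replicate 1 at -0.277. Macrophage markers were higher in mdx HRTΔIKKβ hearts for 13 of 14 genes (controls -0.335 to -0.082, mdx HRTΔIKKβ -0.139 to 0.301), B and plasma cell markers for 6 of 6, adipocyte markers for 6 of 7 (controls -0.615 to 0.097, mdx HRTΔIKKβ -0.196 to 1.108), fibroblast markers for 7 of 9, endothelial markers for 5 of 8, atrial markers for 10 of 10 and skeletal muscle markers for 0 of 15. Skeletal muscle markers scored 3.578 in control replicate 1 and at most 0.587 in any other heart. Cardiomyocyte markers, which check the labelled tissue, were higher for 4 of 14 genes. They scored -0.014 to 0.017 in controls and 0.017, 0.049, -0.017 and -0.051 in mdx HRTΔIKKβ replicates 1 to 4. One of them, Nppb, was at 14.22 and 14.51 in mdx HRTΔIKKβ replicates 1 and 2 and at 13.25 to 13.71 in the other hearts. Nppb thus raised the cardiomyocyte scores of mdx HRTΔIKKβ replicates 1 and 2. No score was taken without it, so the order of hearts in this score is not read further. The part of these cells in the subunit values was not tested. Ikbkb itself, read by its brightest probe set in whole hearts, was at 8.90 ± 0.11 and 8.72 ± 0.19 (-0.18 ± 0.11, adjusted p = 0.801), so it did not pass the test either. Its other probe sets differed by -0.08 to 0.02. By qPCR on whole hearts, the study reported lower Ikbkb in mdx HRTΔIKKβ than in mdx IKKβf/f mice.

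Complex IV has subunits with a form of heart and skeletal muscle and a form of most other tissues, and these were compared within each heart. Cox6a2, the muscle form, measured 14.38, 14.47 and 14.39 in the control hearts and 14.33, 14.31, 14.38 and 14.40 in the mdx HRTΔIKKβ hearts (-0.06 ± 0.05). Cox6a1, the general form, measured 13.43, 13.40 and 13.51 in the control hearts and 13.67, 13.81, 13.51 and 13.46 in the mdx HRTΔIKKβ hearts (0.17 ± 0.09, adjusted p = 0.796). The pair lay in opposite directions in mdx HRTΔIKKβ replicates 1 and 2, which had the lowest Cox6a2 and the highest Cox6a1 of all hearts, while replicates 3 and 4 lay close to the controls. Those were also the hearts with the highest macrophage, fibroblast, endothelial and adipocyte scores given above, whose part was not tested.

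The difference Cox6a2 minus Cox6a1 was 0.97 ± 0.10 in controls (0.96, 1.07 and 0.89) and 0.74 ± 0.20 in mdx HRTΔIKKβ hearts (0.65, 0.50, 0.87 and 0.94). This was a change of -0.23, with p = 0.171 in a two-sided exact permutation test over the 35 assignments of hearts (0.514 adjusted over the 3 pairs). Cox7a1 minus Cox7a2 was -0.57 ± 0.06 and -0.60 ± 0.07, a change of -0.03 (exact permutation p = 0.629, adjusted 0.857). Cox8b minus Cox8a was 1.39 ± 0.09 and 1.38 ± 0.08, a change of -0.01 (exact permutation p = 0.857). The smallest p this design allows is 0.0286. Since probe sets differ in affinity, a difference between isoforms is a contrast of 2 probe sets and not a ratio of transcripts.

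**Figure D4:**
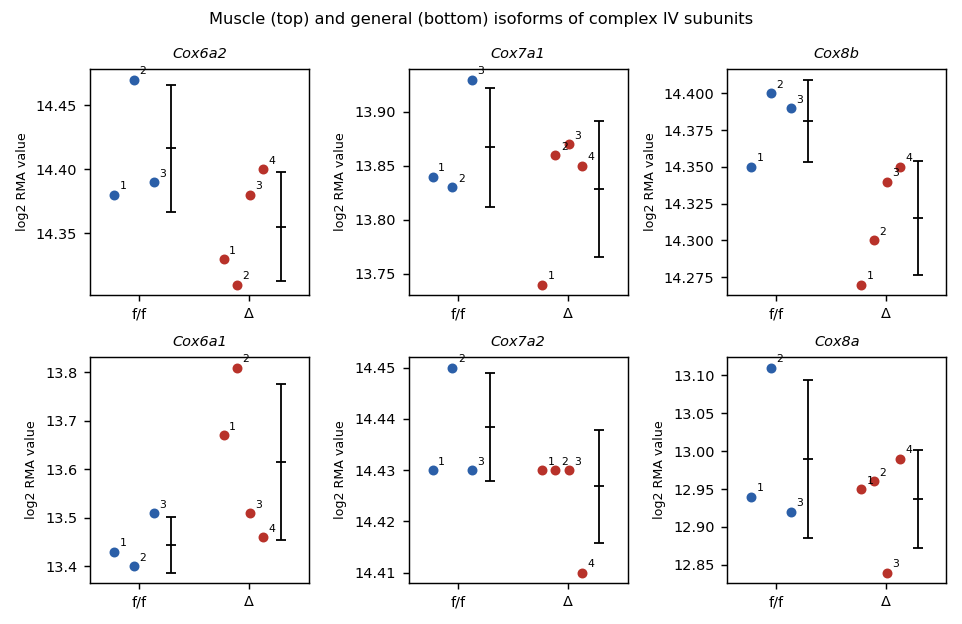
Log2 RMA value (y axis, a separate range for each gene) of the muscle forms Cox6a2, Cox7a1 and Cox8b (top) and the general forms Cox6a1, Cox7a2 and Cox8a (bottom) in mdx IKKβf/f (f/f, blue) and mdx HRTΔIKKβ (Δ, red) hearts, numbered by replicate, with the mean ± SD in black. mdx HRTΔIKKβ replicates 1 and 2 are highest for Cox6a1 (13.67 and 13.81) and lowest for Cox6a2 (14.33 and 14.31).

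A list of subunits outside the 51 genes, which also held the associated genes Cycs, Atpif1 and Cox7a2l, was also mostly lower. Of 31 listed, 29 were on the arrays, 21 were lower, the median was -0.018 and 0 had an unadjusted p under 0.05. Ndufb4 and Cox4i2 were dim, at means of 5.38 and 6.06 in controls, so that their direction says little. Ndufa13, a membrane-arm subunit, measured 13.99, 14.06 and 14.03 in the control hearts and 13.90, 13.88, 14.01 and 13.96 in the mdx HRTΔIKKβ hearts (-0.09 ± 0.05, adjusted p = 0.804). Ndufs5, also of the membrane arm, went the other way, at 12.77 ± 0.13 and 12.90 ± 0.05 (0.14 ± 0.07, adjusted p = 0.796), and only control replicate 1 (12.92) lay within the range of the mdx HRTΔIKKβ hearts. Of the 13 subunits encoded in mitochondrial DNA the arrays named 1, ND5 of complex I. It was at 14.60 ± 0.01 and 14.60 ± 0.07 (-0.0017 ± 0.06, adjusted p = 0.997).

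Assembly factors, which build the complexes and are not part of them, were lower for 26 of 41 genes (median -0.0074), and at an unadjusted p of 0.05 only 1 was higher and 0 were lower, close to the 3.25% and 2.95% of all genes. That gene was Timmdc1, an assembly factor of complex I, at 8.53 ± 0.10 and 8.68 ± 0.06 (0.15 ± 0.06, adjusted p = 0.796). Sco2, which delivers copper to complex IV, measured 8.70, 8.79 and 8.78 in the control hearts and 8.91, 9.04, 8.84 and 8.84 in the mdx HRTΔIKKβ hearts (0.15 ± 0.07, adjusted p = 0.796), without overlap. Surf1, another assembly factor of complex IV, named after its values were seen, was lower without overlap, at 10.14 ± 0.02 and 10.02 ± 0.13 (-0.12 ± 0.08, adjusted p = 0.806). Lyrm7, which helps to insert the iron-sulfur protein into complex III, was at 6.25 ± 0.07 and 6.12 ± 0.04 (-0.12 ± 0.05, adjusted p = 0.796). Among 32 other mitochondrial genes (citric acid cycle, carriers, import, membrane shape) 20 were lower, the median was -0.017 and 0 had an unadjusted p under 0.05. The smallest p-values there were those of Ogdh, of the citric acid cycle (-0.11 ± 0.05), Chchd3, of the cristae junctions (-0.09 ± 0.06, but 0.11 with the mean of all its probe sets), and Opa1, which fuses inner membranes (-0.08 ± 0.06), with adjusted p-values of 0.796, 0.814 and 0.814.

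Regulators of mitochondrial gene expression were dimmer than the subunits and differed by more, in both directions, from -0.27 to 0.30. Of 17 genes, 11 were lower and 6 higher, with a median of -0.089. At an unadjusted limma p of 0.05, 2 were lower and 1 higher, where 2.95% and 3.25% of all genes were, and none passed adjustment. The groups did not overlap for these 3 genes, where 2.62% of all genes were lower and 3.04% higher without overlap. Esrrb, an estrogen-related receptor, measured 9.15, 9.07 and 9.20 in the control hearts and 8.85, 8.86, 8.99 and 8.96 in the mdx HRTΔIKKβ hearts (-0.23 ± 0.06, unadjusted p = 0.00655, adjusted p = 0.796). All 4 mdx HRTΔIKKβ hearts were below the controls. Its difference was -0.06 when its probe set, of a kind that can match several transcripts, was replaced by the next brightest without that suffix. Polrmt, the RNA polymerase of mitochondrial DNA, measured 10.04, 10.05 and 10.12 in the control hearts and 9.83, 9.83, 9.99 and 9.94 in the mdx HRTΔIKKβ hearts (-0.17 ± 0.06, unadjusted p = 0.0236, adjusted p = 0.796), again without overlap.

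Gabpb1, which pairs with the ETS-family protein GABPA, was higher on average with IKKβ deleted. It measured 6.93, 6.63 and 6.83 in the control hearts and 7.15, 7.30, 6.96 and 6.96 in the mdx HRTΔIKKβ hearts (0.30 ± 0.11, unadjusted p = 0.0271, adjusted p = 0.796), and every mdx HRTΔIKKβ heart was above every control. Ppargc1a, which encodes PGC-1α and was named after its values were seen, measured 11.60, 12.13 and 11.60 in the control hearts and 11.24, 11.24, 11.89 and 11.96 in the mdx HRTΔIKKβ hearts (-0.19 ± 0.23, adjusted p = 0.869). Control replicate 2 was its highest heart and mdx HRTΔIKKβ replicates 1 and 2 its lowest, the same hearts that stood highest and lowest in the score of the subunits. Without control replicate 2 its difference was -0.016. Other regulators of the list, named after their values were seen, were ordered in different ways. Tfb2m had the order of Ppargc1a, with control replicate 2 at 11.13 and mdx HRTΔIKKβ replicates 1 and 2 at 10.65 and 10.70. Pprc1 (8.52 and 8.67) and Esrra (10.65 and 10.67) were highest in those 2 mdx HRTΔIKKβ hearts. Ppargc1b was lowest in mdx HRTΔIKKβ replicates 3 and 4 (10.52 and 10.68).

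**Figure D5:**
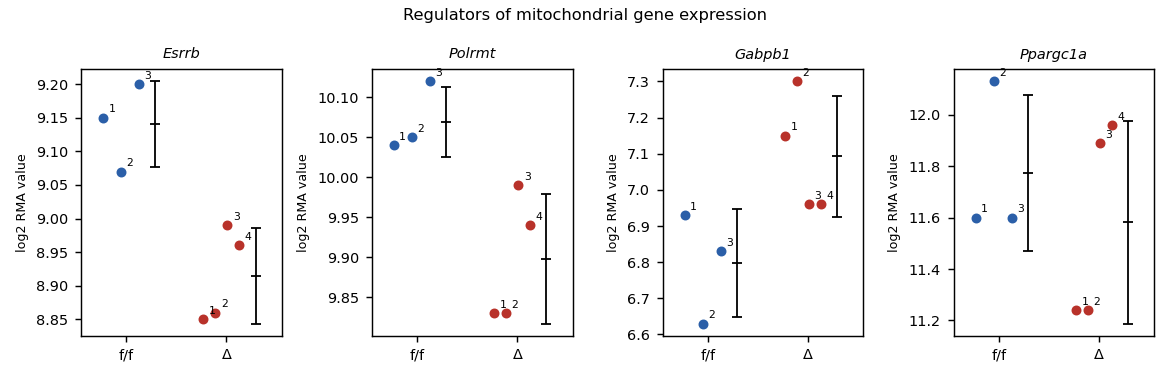
Log2 RMA value (y axis, a separate range for each gene) of 4 regulators in mdx IKKβf/f (f/f, blue) and mdx HRTΔIKKβ (Δ, red) hearts, numbered by replicate, with the mean ± SD in black. The groups do not overlap for Esrrb, Polrmt and Gabpb1, and overlap for Ppargc1a, where control replicate 2 is at 12.13 and mdx HRTΔIKKβ replicates 1 and 2 are at 11.24.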

How the data were processed

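Total RNA from whole hearts was hybridized to Affymetrix GeneChip Mouse Genome arrays, 1 heart per array. The authors made the deposited log2 values by RMA (background correction, quantile normalization between arrays, a summary per probe set). RMA was run in Partek and, independently, in Affymetrix Expression Console, per the submitters' processing notes and the methods. The program behind the deposited table and all versions are not given in the sources used here. RMA compresses folds, most at the ends of the range, and quantile normalization removes a global shift in RNA amount. Depth does not apply, and the number of arrays limits precision.

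Differences between 4 mdx HRTΔIKKβ and 3 mdx IKKβf/f hearts were fitted in limma 3.58.1 under R 4.3.3 (lmFit and eBayes, two-sided) on the whole table of 45037 probe sets, unfiltered, and p-values were adjusted by Benjamini-Hochberg. The fit was tested on simulated data. The study calls its samples biological replicates. Gene names were those of GEO's platform annotation and may be outdated: 34945 probe sets had 1 gene, 932 several and 9160 none, and only the first kind was used. Comparison with RefSeq through Entrez IDs changed 0 symbols. Genes of 5 other mitochondrial lists and 8 marker lists were read likewise (228 of 249 on the arrays). Isoform contrasts were tested by exact permutation. Complex I genes were assigned to modules, and Ndufa4 to complex IV, from textbook knowledge.

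The genes, lists and tests were chosen with earlier results of these data known. The text names Ikbkb, the 8 smallest p-values in complex I and 4 in each other complex, the extreme differences, 6 isoform genes, Ndufa4 and the 3 smallest p-values in each further list. Cox7c, Ndufb8, Surf1, Nppb, Ppargc1a, Tfb2m, Pprc1, Esrra and Ppargc1b were added to these once their values were known. Alternatives were other array scales, a filter on dim probe sets (mean under 5), trended variance, array weights, a replicate block (over the 6 hearts whose numbers both groups share), other probe set choices, the methods' t-test and each heart left out. Counting only genes with a mean of at least 13 was added after seeing the data. Protein sequences were not used here.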

Additional observations from a re-analysis of the deposited data

Results flagged for a closer look

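Among 50 groups of 4 hearts tested for a value far from the rest, 2 stood out (chance flags about 1 in 20). Sdhc in mdx HRTΔIKKβ replicate 2 was at 12.82, while the other 3 hearts of that group were equal to each other in every deposited digit. Cox7a2 in mdx HRTΔIKKβ replicate 4 was at 14.41, with the other 3 equal likewise. Values equal in every deposited digit on more than 1 array were common (36.7% of the subunit genes and 43.2% of all genes).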

How the results depend on the processing

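Under every alternative run, 0 subunit genes passed an adjusted p of 0.05 (smallest 0.691 to 0.960), and the medians of all genes and of each complex stayed negative. The median of all 49 ran from -0.048 to -0.010 with a heart left out. Counts moved more. Genes whose groups did not overlap numbered 2 with median-centred arrays, 0 after a second quantile normalization and 1 to 9 with a heart left out. Genes with a higher mean numbered 4 to 12 with a heart left out. At an unadjusted p of 0.05, 1 was lower by the methods' t-test and 1 (Atp5c1) by the brightest probe set without ambiguous suffixes. The share of all genes in each of these settings is not given here, so these counts have no background beside them. Separation is also easier with fewer hearts. With the mean of all probe sets, the median of complex V was -0.036. The cause was not tested.

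Of 704 differences of 44 named genes under other settings, 677 kept their sign and 27 turned. Surf1, Nppb, Tfb2m, Pprc1, Esrra and Ppargc1b were not among the 44. With a heart left out, the isoform change of Cox7a1 ran from -0.051 to 0.0078 and that of Cox8b from -0.062 to 0.026, Sdhc from -0.045 to 0.084, Atp5c1 from -0.0076 to 0.021, Atp5b from -0.0090 to 0.0085, Cox8a from -0.086 to 0.0065, Ndufa4 from -0.0080 to 0.0022, ND5 from -0.031 to 0.019 and Cox7c from -0.12 to 0.029. The mean of all probe sets gave 0.016 for the Cox8b change, 0.021 for Ndufa10, -0.10 for Atp5c1, 0.11 for Chchd3 and 0.050 for Cox7c. Probe sets without ambiguous suffixes gave -0.21 for Atp5c1 and 0.14 for Cox7c. A second quantile normalization gave -0.0001 for Atp5b, 0.0068 for Cox7a2, 0.018 for Ndufa4 and 0.010 for ND5. Median-centred arrays gave -0.0007 for Atp5b, and array weights 0.0005 for Ndufa4.

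The labels do not say whether the replicate numbers shared by the groups pair the hearts. Deviations from the group means correlated at -0.0751, -0.377 and -0.0362 between same-numbered hearts, too few values to settle this. The fit with the replicate block holds 6 hearts, without mdx HRTΔIKKβ replicate 4. It called 0 subunit genes. Its 5 genes without overlap and its 0.015 for ND5 are the values of leaving out that heart alone, since the block does not change them. The share of all genes without overlap in those 6 hearts is not given here.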
